A study of Mus musculus with 15 samples.

Results

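Transcripts of 10 genes of the unfolded protein response and the integrated stress response were compared in the cecum of mice after antibiotic-induced microbiome depletion (AIMD). The genes were Ddit3, Atf3, Atf4, Xbp1 and Trib3, which encode transcription factors and an effector of the response, and Hspa5, Dnajb9, Sdf2l1, Pdia4 and Herpud1, which encode proteins of the endoplasmic reticulum (ER). They were taken by symbol, and each matched 1 of the 45808 rows of the deposited expression table. All mice were C57BL/6, wild type (WT) by their labels and, per the study's methods, male. AIMD mice (n = 7) were gavaged for 30 days with ampicillin, vancomycin, neomycin, metronidazole and the antifungal amphotericin B, and vehicle-treated mice (n = 8) were gavaged with water over the same 30 days. The labels give an age of 20 weeks for both groups and list each mouse as a sample of its own. By the study's methods the mice would be younger than this, even after the 30 days of gavage, and which age holds is not known.

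The unfolded protein response is the answer of a cell to misfolded protein in the ER. It starts from the sensors PERK, IRE1 and ATF6 in the ER membrane. PERK phosphorylates the translation factor eIF2, which slows protein synthesis in general while raising translation of Atf4. IRE1 removes a short intron from the Xbp1 transcript, which gives the active factor, and ATF6 is cut in the Golgi to release a factor that turns on chaperone genes. The integrated stress response is the branch that runs through eIF2 phosphorylation, and it can also be started by kinases that sense amino acid shortage, heme deficiency or double-stranded RNA. In the gut these pathways are best known from secretory cells such as goblet, Paneth and plasma cells.

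RNA came from whole cecum emptied of content, and poly-A RNA was sequenced from stranded libraries. Markers of absorptive colonocytes summed to 29206 to 45674 FPKM (reads per gene, corrected for gene length and sequencing depth) in AIMD mice and 32118 to 42344 in vehicle-treated mice, so that defining markers of the large bowel epithelium were abundant in both groups. Reads on genes numbered 8669781 to 18088353 in AIMD mice (median 11229053) and 4368385 to 14393532 in vehicle-treated mice (median 7848142). Vehicle replicate 8 was the least deep. It also had the highest summed smooth muscle markers of all mice (3818 FPKM) and the lowest summed goblet cell markers (3857 FPKM). Among the 8 vehicle-treated mice it had the lowest value of 4 members and the highest of Ddit3 and Atf3, and the overall difference without it stands beside each tested member. The mice also lay in 2 sets by their circadian clock genes: AIMD replicates 1 to 3 and vehicle replicates 1 to 4 had Arntl at 12.5 to 20.8 FPKM, and the other 8 mice had it at 4.00 to 9.90. The labels give no time of sacrifice, which was a factor in the authors' own model.

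Of the 10 members, 9 passed the filter on low values (7 or more mice with an FPKM of 0.5 or higher), and 5 of these were higher in AIMD mice at an adjusted p under 0.05 in limma, with 0 lower. Of all 11966 genes tested, 36.1% were called in either direction, 19.4% as higher and 16.7% as lower in AIMD mice. The 5 members that rose were Ddit3, Atf3, Dnajb9, Hspa5 and Xbp1. The median log2 difference (AIMD minus vehicle) was 0.39 over the 9 tested members and 0.006 over all tested genes. In bulk tissue, fewer cells of a type and less RNA per cell cannot be told apart, and gene-level FPKM show neither the splicing of Xbp1 nor the translation of Atf4.

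**Figure D1:**
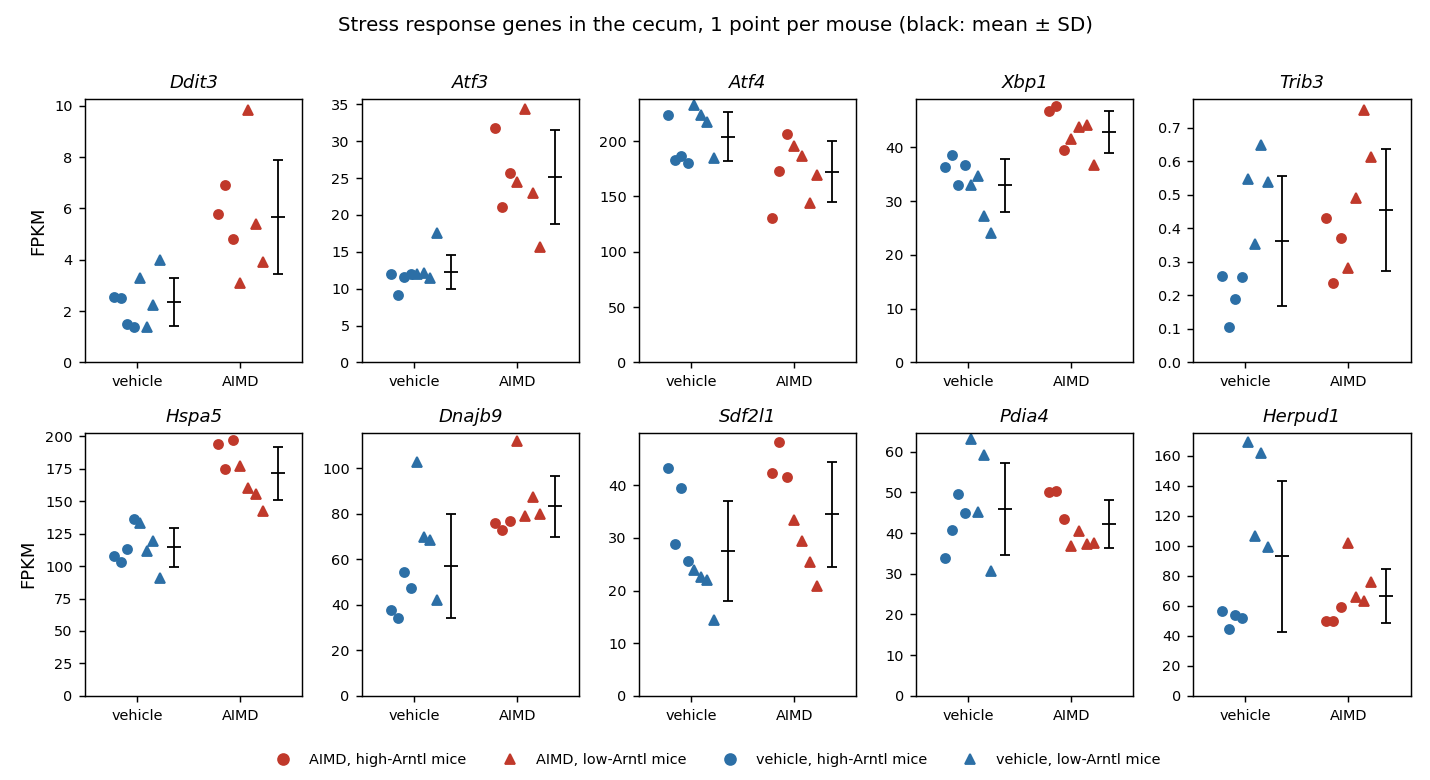
FPKM (vertical axes, each from 0) of the 10 members in every mouse, with vehicle-treated mice in blue and AIMD mice in red; black bars are the mean ± SD, circles are mice with high Arntl and triangles mice with low Arntl. Hspa5 alone had no overlap between the groups, with every AIMD mouse at 142 FPKM or more and every vehicle-treated mouse at 136 or less.

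By level, scaled for gene length, the median FPKM over all 15 mice ran from Atf4 (186.5) and Hspa5 (136.1) through Dnajb9 (72.8), Herpud1 (63.5), Pdia4 (43.4), Xbp1 (36.8), Sdf2l1 (28.9) and Atf3 (15.7) to Ddit3 (3.28) and Trib3 (0.372). The ranges over mice overlapped between each of these genes and the next, apart from Trib3, whose highest mouse (0.752) lay below the lowest value of Ddit3 (1.36).

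Ddit3 encodes CHOP, a transcription factor downstream of ATF4 that is linked to cell death when ER stress lasts. In GRCm38 it spans chr10:127290774-127296288 on the plus strand. Its FPKM was 3.09 at the lowest, 5.38 at the median and 9.83 at the highest in AIMD mice, and 1.36, 2.37 and 4.00 in vehicle-treated mice. The highest AIMD mouse was replicate 5 and the lowest replicate 4, and 5 of 7 AIMD mice were above the highest vehicle-treated mouse, which was replicate 8. The mean was 5.67 ± 2.22 (SD, n = 7) against 2.35 ± 0.949 (SD, n = 8), a ratio of 2.41. The log2 difference was 1.11 (standard error 0.23, limma adjusted p = 0.00153), the largest of the 9 tested members, and 1.21 without vehicle replicate 8. The gene was low, with 19 to 226 reads per mouse, and limma voom on the recovered reads gave 1.35. A further annotated gene of the same symbol covers 105 bases (6.13%) of its exons, and exons of Mars and Gm4189 overlap it on the opposite strand. How the counting treated such reads is not given in the sources used here, so the level of Ddit3 and its difference between groups are uncertain to that extent. Mars was itself called higher in AIMD mice, with means of 4.78 and 3.35 FPKM (log2 difference 0.455, limma adjusted p = 0.0261).

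Atf3 encodes a transcription factor that ATF4 induces and that many other stimuli induce as an immediate early gene. The gene spans chr1:191170296-191218039 on the minus strand. The FPKM in AIMD mice was 15.7 at the lowest (replicate 7), 24.5 at the median and 34.4 at the highest (replicate 5). Vehicle-treated mice had 9.20, 11.97 and 17.5. Vehicle replicates 1 to 7 lay within 9.20 to 12.1, all below every AIMD mouse, and replicate 8 alone overlapped with the AIMD range, so that 6 of 7 AIMD mice exceeded every vehicle-treated mouse. The mean of 25.1 ± 6.35 (SD, n = 7) was 2.05 times that of vehicle-treated mice, 12.2 ± 2.33 (SD, n = 8) (log2 difference 0.99, standard error 0.16, limma adjusted p = 0.000175). Without vehicle replicate 8 the log2 difference was 1.06.

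Xbp1 encodes the transcription factor that IRE1 activates, which drives genes of ER folding, secretion and degradation. The gene spans chr11:5520659-5525893 on the plus strand. The lowest, median and highest FPKM were 36.8, 43.9 and 47.8 in AIMD mice. They were 24.0, 33.9 and 38.6 in vehicle-treated mice. 6 of 7 AIMD mice were above every vehicle-treated mouse, with AIMD replicate 7 below vehicle replicate 2. The means were 42.9 ± 3.94 (SD, n = 7) and 32.9 ± 4.96 (SD, n = 8), the smallest of the 5 rises, at a ratio of 1.30 (log2 difference 0.39, standard error 0.12, limma adjusted p = 0.0147). Vehicle replicate 8 had the lowest value, and the log2 difference without it was 0.33 (limma adjusted p = 0.0171).

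Atf4 encodes the main transcription factor of the integrated stress response, which is controlled above all at translation. The gene spans chr15:80255184-80257541 on the plus strand. AIMD mice had 131, 173 and 207 FPKM at the lowest, median and highest, and vehicle-treated mice had 180, 202 and 233. 4 of 7 AIMD mice were below every vehicle-treated mouse and no AIMD mouse was above all of them. The means were 172 ± 27.3 (SD, n = 7) and 204 ± 22.04 (SD, n = 8). The log2 difference of -0.25 (standard error 0.12) did not pass the threshold (limma adjusted p = 0.116), and its 95% confidence interval ran from -0.51 to 0.005. It was -0.27 without vehicle replicate 8, and -0.14 after quantile normalization (limma adjusted p = 0.339). The transcript of Atf4 was therefore not called in either direction, while Ddit3 and Atf3 were higher in the same mice.

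Trib3 encodes a pseudokinase that CHOP and ATF4 induce and that dampens ATF4. It is encoded at chr2:152337422-152344032 on the minus strand and did not pass the filter. It had 0.235 to 0.752 FPKM in AIMD mice (median 0.431) and 0.104 to 0.647 in vehicle-treated mice (median 0.305), which rested on 3 to 21 reads per mouse. The groups overlapped over most of their range. No difference in Trib3 was detected (two-sided exact permutation test of mean log2 values, p = 0.329, where 0.000155 is the smallest p that 7 mice against 8 allow).

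**Figure D2:**
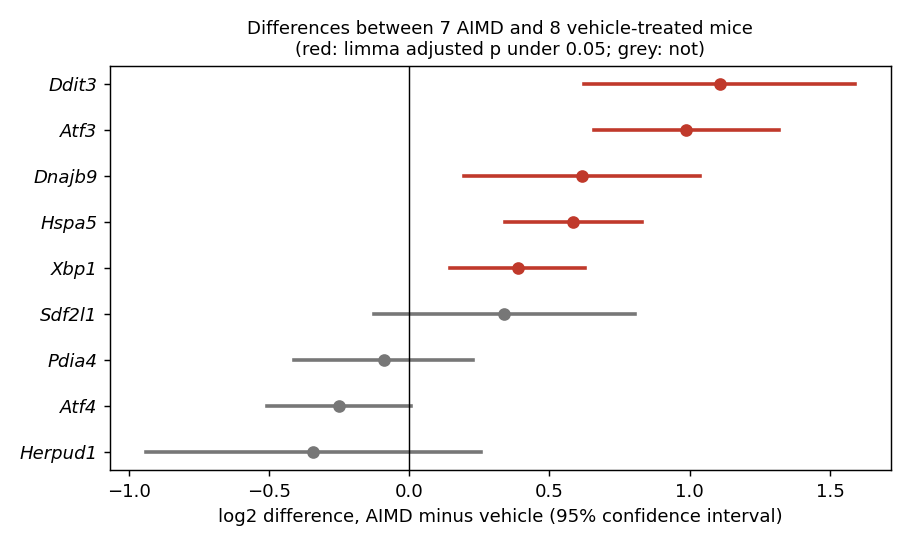
Log2 difference of AIMD minus vehicle (horizontal axis; points) with its 95% confidence interval (lines) for the 9 tested members, from limma over 15 mice. The 5 members in red (Ddit3, Atf3, Dnajb9, Hspa5, Xbp1) had an adjusted p under 0.05, and the intervals of the 4 in grey include 0.

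Hspa5 encodes BiP, the main chaperone of the ER lumen, which also holds the stress sensors inactive. It spans chr2:34771970-34777547 on the plus strand. Its promoter is shown because it holds the ER stress response element (ERSE), the site known to bind ATF6 and XBP1 together with NF-Y. The element was searched for as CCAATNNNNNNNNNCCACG on both strands of the 250 bases before each RefSeq start site (GRCm38.p6). For Hspa5 this is chr2:34771840-34772089 on the plus strand, and the match, in capitals, runs from position -65 to -47 before the start. GENCODE M21 places the first base of Hspa5 inside this window.
Hspa5 promoter: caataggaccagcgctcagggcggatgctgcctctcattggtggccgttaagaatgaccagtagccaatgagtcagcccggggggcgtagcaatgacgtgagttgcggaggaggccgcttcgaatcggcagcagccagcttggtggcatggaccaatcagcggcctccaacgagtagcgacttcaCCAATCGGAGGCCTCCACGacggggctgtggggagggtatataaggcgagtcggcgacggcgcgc
The same letters were found in 37 of 32851 promoters of this length (0.113%), and in 1 of the 10 members. A match describes the sequence and says nothing of binding in these mice.

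Hspa5 was the member whose groups did not overlap. The FPKM was 142, 175 and 197 at the lowest, median and highest in AIMD mice, and 90.7, 112 and 136 in vehicle-treated mice. No vehicle-treated mouse reached the lowest AIMD mouse. Groups without overlap were found for 8.56% of tested genes, 5.26% with AIMD mice above and 3.30% with AIMD mice below. The lowest AIMD mouse was replicate 7 and the highest vehicle-treated mouse replicate 4. With means of 171.5 ± 20.3 (SD, n = 7) and 114 ± 15.04 (SD, n = 8), the ratio was 1.5 and the log2 difference 0.59 (standard error 0.12, limma adjusted p = 0.00103). Without vehicle replicate 8, the lowest of its group, it was 0.54 (limma adjusted p = 0.00119).

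Dnajb9 encodes ERdj4, a co-chaperone of BiP whose transcript is a target of XBP1. It spans chr12:44205559-44210326 on the minus strand. In AIMD mice it had 72.8, 79.0 and 112 FPKM at the lowest, median and highest. Vehicle-treated mice had 34.3, 50.9 and 103. 7 of 8 vehicle-treated mice were below every AIMD mouse, and vehicle replicate 5, at 103, was above 6 of the 7 AIMD mice. AIMD replicate 4 had the highest value. The mean was 83.3 ± 13.3 (SD, n = 7) against 57.1 ± 22.7 (SD, n = 8), a ratio of 1.46 (log2 difference 0.62, standard error 0.20, limma adjusted p = 0.0233). Without vehicle replicate 8 it was 0.57 (limma adjusted p = 0.0363). Of the 50-base windows of Dnajb9, 5.50% also occur in transcripts of another gene, most of them in Gm6568, which is listed at 0 in all mice but 1.

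Sdf2l1 encodes an ER protein that works with BiP and its co-chaperones. It spans chr16:17130138-17132383 on the minus strand. The FPKM was 20.8, 33.4 and 48.3 in AIMD mice and 14.4, 24.8 and 43.2 in vehicle-treated mice, again as lowest, median and highest. The groups overlapped, with 1 AIMD mouse above and 1 vehicle-treated mouse below all mice of the other group. The means of 34.5 ± 9.98 (SD, n = 7) and 27.5 ± 9.52 (SD, n = 8) gave a log2 difference of 0.34, with a 95% confidence interval from -0.13 to 0.80 (limma adjusted p = 0.242). Without vehicle replicate 8, the lowest of its group, the difference was 0.22 (limma adjusted p = 0.401).

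Pdia4 encodes ERp72, a protein disulfide isomerase of the ER. Its gene spans chr6:47796141-47813430 on the minus strand. AIMD mice had 36.7 to 50.2 FPKM (median 40.4), inside the range of 30.8 to 63.0 (median 45.0) of vehicle-treated mice. The vehicle-treated mice were thus the more spread, with 2 below and 2 above all AIMD mice. The means were 42.3 ± 5.86 (SD, n = 7) and 45.9 ± 11.3 (SD, n = 8), a log2 difference of -0.091 with a 95% confidence interval from -0.41 to 0.23 (limma adjusted p = 0.666). Single mice moved this small value, to -0.17 without vehicle replicate 8, -0.15 without vehicle replicate 1, -0.022 without vehicle replicate 5, -0.037 without vehicle replicate 7 and -0.053 without AIMD replicate 4; after quantile normalization it was -0.054. Among mice with high Arntl it was 0.19, and among those with low Arntl it was -0.33, or -0.53 without vehicle replicate 8.

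Herpud1 encodes HERP, a membrane protein of the complexes that pass misfolded proteins to degradation. Its gene spans chr8:94386438-94395377 on the plus strand. Its promoter, chr8:94386179-94386428 on the plus strand, is shown beside that of Atf3, chr1:191183334-191183583 on the minus strand, since these were the other member promoters with a match. In Herpud1 the capitals mark, first, the C/EBP-ATF response element (CARE, searched as TGATGNAA) on the minus strand at -112 to -105, and then the second ER stress response element (ERSE-II, searched as ATTGG, any base and CCACG) at -52 to -42. In Atf3 they mark a CARE on the minus strand at -110 to -103. The Atf3 window lies inside the gene as GENCODE M21 draws it, whose longest transcripts start further upstream.
Herpud1 promoter: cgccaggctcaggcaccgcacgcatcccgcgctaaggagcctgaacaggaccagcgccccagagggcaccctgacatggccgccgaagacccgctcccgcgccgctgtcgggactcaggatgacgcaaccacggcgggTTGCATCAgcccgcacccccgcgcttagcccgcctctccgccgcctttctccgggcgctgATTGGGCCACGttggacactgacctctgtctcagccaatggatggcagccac
Atf3 promoter: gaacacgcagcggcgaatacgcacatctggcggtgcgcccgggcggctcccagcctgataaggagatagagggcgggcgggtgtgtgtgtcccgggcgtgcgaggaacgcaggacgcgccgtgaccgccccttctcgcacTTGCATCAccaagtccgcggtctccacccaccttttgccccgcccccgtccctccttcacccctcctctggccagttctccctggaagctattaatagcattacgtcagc
ERSE-II occurred in 10 of 32851 promoters (0.0304%) and CARE in 1134 (3.45%), on either strand. The other 2 motifs searched, UPRE (TGACGTGG, 0.563% of promoters) and CRE (TGACGTCA, 1.55%), were in no member's window, and 7 of the 10 windows held none of the 5 motifs. Of the 3 members with a match, Hspa5 and Atf3 were called higher and Herpud1 was not called. Among tested members without a match, Ddit3, Xbp1 and Dnajb9 were called higher as well, and Atf4, Sdf2l1 and Pdia4 were not called.

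Herpud1 spread widely among vehicle-treated mice. It had 49.6, 63.5 and 102 FPKM at the lowest, median and highest in AIMD mice and 44.5, 77.8 and 169 in vehicle-treated mice. 1 vehicle-treated mouse was below and 3 were above all AIMD mice. The means were 66.4 ± 18.1 (SD, n = 7) and 92.8 ± 50.1 (SD, n = 8). The log2 difference of -0.34 had a 95% confidence interval from -0.94 to 0.26 (limma adjusted p = 0.364). It was -0.20 without vehicle replicate 5, -0.21 without vehicle replicate 7 and -0.30 without vehicle replicate 8.

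The spread of Herpud1 followed the sets of mice with high and low Arntl. Among mice with high Arntl, Herpud1 was 44.5 to 56.4 FPKM in 4 vehicle-treated mice and 49.6 to 58.8 in 3 AIMD mice. Among mice with low Arntl it was 99.1 to 169 in 4 vehicle-treated mice and 63.5 to 102 in 4 AIMD mice. The log2 difference of AIMD minus vehicle was 0.028 in the high-Arntl mice and -0.79 in the low-Arntl mice (-0.92 without vehicle replicate 8), where the ranges still overlapped. In limma with treatment in the model, the slope of Herpud1 on the axis of 12 clock genes was -0.49 log2 units per SD of the axis (standard error 0.09, adjusted p = 0.00269). Since the mice lay at the ends of this axis, the slope amounts to a difference between the sets.

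Sdf2l1 went the other way along the clock axis. It was 41.5 to 48.3 FPKM in the 3 AIMD mice and 25.6 to 43.2 in the 4 vehicle-treated mice with high Arntl, against 20.8 to 33.4 and 14.4 to 24.0 in those with low Arntl. The slope was 0.38 log2 units per SD (standard error 0.07, limma adjusted p = 0.00323), and the log2 difference between AIMD and vehicle was 0.39 among high-Arntl mice and 0.39 among low-Arntl mice, or 0.23 in the latter without vehicle replicate 8. Of the 9 tested members, 2 had a called slope, against 22.0% of all tested genes. Dnajb9 had a slope of -0.23 (limma adjusted p = 0.062), and that of Xbp1 was 0.12 (limma adjusted p = 0.0941).

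**Figure D3:**
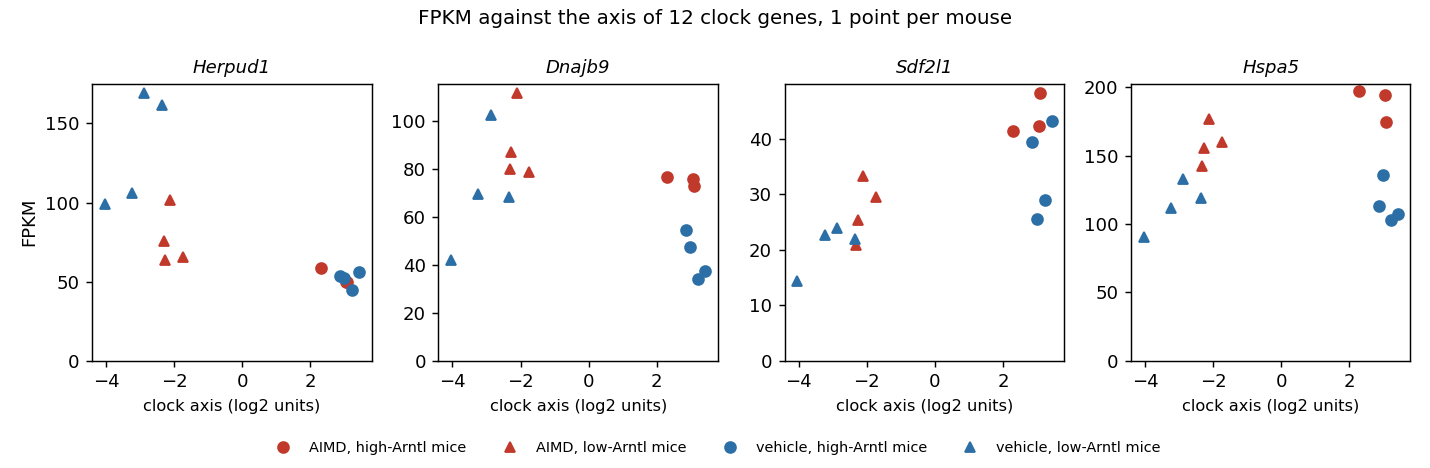
FPKM (vertical axes, from 0) of 4 members against the clock-gene axis (horizontal, log2 units; high values mean high Arntl), 1 point per mouse, AIMD in red and vehicle in blue, circles for high and triangles for low Arntl. Herpud1 is at 44.5 to 58.8 FPKM in all 7 mice on the right and at 63.5 to 169 in all 8 on the left, Sdf2l1 is mostly higher on the right, and Hspa5 separates the groups on both sides.

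The 5 members that rose over all mice were also higher in AIMD mice within each set, which was not tested set by set. They were picked by their difference over these same mice, so the values within sets describe that difference and are no separate support for it. Hspa5 was higher without overlap in both, by 0.72 on the log2 scale among high-Arntl mice and 0.49 among low-Arntl mice. Xbp1 was also higher without overlap in both, by 0.30 and 0.49. Without vehicle replicate 8 the low-Arntl difference was 0.39 for each of these 2 genes. Ddit3 differed by 1.37 and 0.86 and Atf3 by 1.17 and 0.82, both without overlap among high-Arntl mice and with overlap among low-Arntl mice. Sets this small separate more easily than the whole groups, and the share of all genes that did so was not counted. For Hspa5 the separation within sets follows from that of the whole groups. Leaving out vehicle replicate 8 gave low-Arntl differences of 1.05 for Ddit3 and 0.96 for Atf3. Dnajb9 was 72.8 to 76.7 FPKM in AIMD and 34.3 to 54.4 in vehicle-treated mice with high Arntl, a difference of 0.81. In the low-Arntl mice the Dnajb9 ranges overlapped, and the difference was 0.39, or 0.17 without vehicle replicate 8. Whether the difference between AIMD and vehicle depended on the clock axis was tested as an interaction in limma. It was called for 0 of 11966 genes, with 382 (3.19%) at an unadjusted p under 0.05, and for no member, the lowest unadjusted p being 0.11 for Pdia4.

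The sensors and the machinery of eIF2 were also measured, from a list of 19 genes that all passed the filter. In this list 4 (21.1%) were called higher and 1 (5.26%) lower, with a median log2 difference of 0.25; of all tested genes, 19.4% were called higher and 16.7% lower, and the shares given for the other lists stand against the same background. Eif2s1, the phosphorylated subunit of eIF2, was 13.0 to 19.6 FPKM in AIMD mice and 4.63 to 13.9 in vehicle-treated mice (log2 difference 0.76, limma adjusted p = 0.00427). The kinases Eif2ak3 (PERK) and Eif2ak1 (HRI, the heme-regulated kinase) rose by 0.48 and 0.58. Dnajc3, which encodes an inhibitor of PERK that acts as a BiP co-chaperone, was 19.9 to 24.9 FPKM in AIMD mice against 13.3 to 19.1, without overlap (log2 difference 0.39, limma adjusted p = 0.00642). Atf6b, the paralog of Atf6, fell by 0.60 on the log2 scale. Ern1, which encodes IRE1, had a log2 difference of -0.20 (limma adjusted p = 0.178) and Atf6 one of 0.42 (limma adjusted p = 0.0936), and neither was called. The kinases Eif2ak2 (0.30) and Eif2ak4 (0.080) and the eIF2 phosphatase subunits Ppp1r15a (-0.11) and Ppp1r15b (0.39) were not called. 9 genes of this list were called without vehicle replicate 8 and 10 with the clock axis as a covariate.

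Genes that ATF4 is known to induce were taken in 2 lists. Of 13 tested aminoacyl-tRNA synthetases and tRNA export genes, which charge and move tRNA, 8 (61.5%) rose and 0 fell, with a median log2 difference of 0.46. The largest were Wars (0.87), Cars (0.74), Sars (0.67) and Nars (0.66). Of 24 tested genes of amino acid supply and other effectors, 7 (29.2%) rose and 0 fell, with a median of 0.20. Asns, asparagine synthetase, was 8.60 to 14.2 FPKM in AIMD mice and 2.55 to 6.36 in vehicle-treated mice, a log2 difference of 1.28 without overlap (standard error 0.17, limma adjusted p = 3.03e-05). Eif4ebp1, an inhibitor of translation initiation, rose by 1.04, Vldlr, a lipoprotein receptor, by 0.93 and Ndrg1, a gene also induced by hypoxia, by 0.93. Another 6 genes of this list did not pass the filter, among them Fgf21, which was listed at 0 in every mouse. Among them too, Chac1 had 0.14 to 0.728 FPKM in AIMD mice and 0 to 0.263 in vehicle-treated mice. Gdf15, also of these, went the other way, with 0.047 to 0.313 and 0.049 to 0.742 FPKM. Neither was tested.

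Genes of the ER itself were called in both directions. Among 29 tested chaperones and folding enzymes, 5 (17.2%) rose and 3 (10.3%) fell, and the median log2 difference was 0.007. Those that rose included Ero1l, an oxidase that serves disulfide formation (0.88), Hyou1, a nucleotide exchange factor of BiP (0.67), the lectin chaperone Calr (0.57) and the thioredoxin-like Tmx1 (0.53). Fkbp11 (-1.05), the disulfide isomerase Pdia6 (-0.63) and Hspa13 (-0.42) fell. Without vehicle replicate 6, 5 genes of this list were called in place of 8. Among 24 tested genes of ER-associated degradation, 6 (25%) rose, led by Aup1 (0.70), Nploc4 (0.67), Ube2j1 (0.53) and Ubxn4 (0.51), and Ube2j2 (-0.66) and Selk (-0.47) fell (8.33%), with a median of 0.022. Here 4 genes were called without AIMD replicate 1, and 5 without AIMD replicate 2 or vehicle replicate 6 or 7. Among 31 tested genes of translocation, glycosylation and export, 5 (16.1%) rose and 6 (19.4%) fell, with a median of -0.047. The translocon subunits moved apart, since Sec61a1 rose by 0.94 and Sec61b fell by 0.77 on the log2 scale. The receptor and particle that target proteins to the ER did likewise, with Srpr (0.93) and Srp72 (0.58) higher and Srp14 (-0.73) lower. Rpn1, a subunit of the enzyme that attaches N-glycans, was 44.0 to 81.2 FPKM in AIMD mice and 92.0 to 140.0 in vehicle-treated mice, a fall of 0.92 on the log2 scale without overlap (limma adjusted p = 6.34e-05).

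Of 9 other transcription factors tied to ER stress, 3 (33.3%) rose and 1 (11.1%) fell. Creb3l3 (1.22), Creb3l4 (0.78) and Creb3 (0.37), membrane-bound factors cut in the same way as ATF6, rose, and Cebpb, a partner of CHOP and ATF4, fell by 1.42 on the log2 scale, from a median of 24.1 FPKM to 8.05. The median over the 9 was 0.020, and without AIMD replicate 5 only 2 of the 9 were called. Of 7 tested genes that link CHOP to cell death, 2 (28.6%) rose, Ero1l (0.88) and Dapk3 (0.74), and 0 fell. Ero1l is the same gene as in the list of chaperones and is counted in both lists. In the list of CHOP-linked genes, 1 was called when any of AIMD replicates 1, 2, 3, 5 and 6 or vehicle replicates 4 to 7 was left out. Atf3 is also an immediate early gene, and among 18 tested genes of that kind 4 (22.2%) rose and 6 (33.3%) fell (median -0.31). Fosb (1.27) and Klf6 (0.75) were higher in AIMD mice, and Junb (-1.09) and Ier2 (-1.05) were lower.

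**Figure D4:**
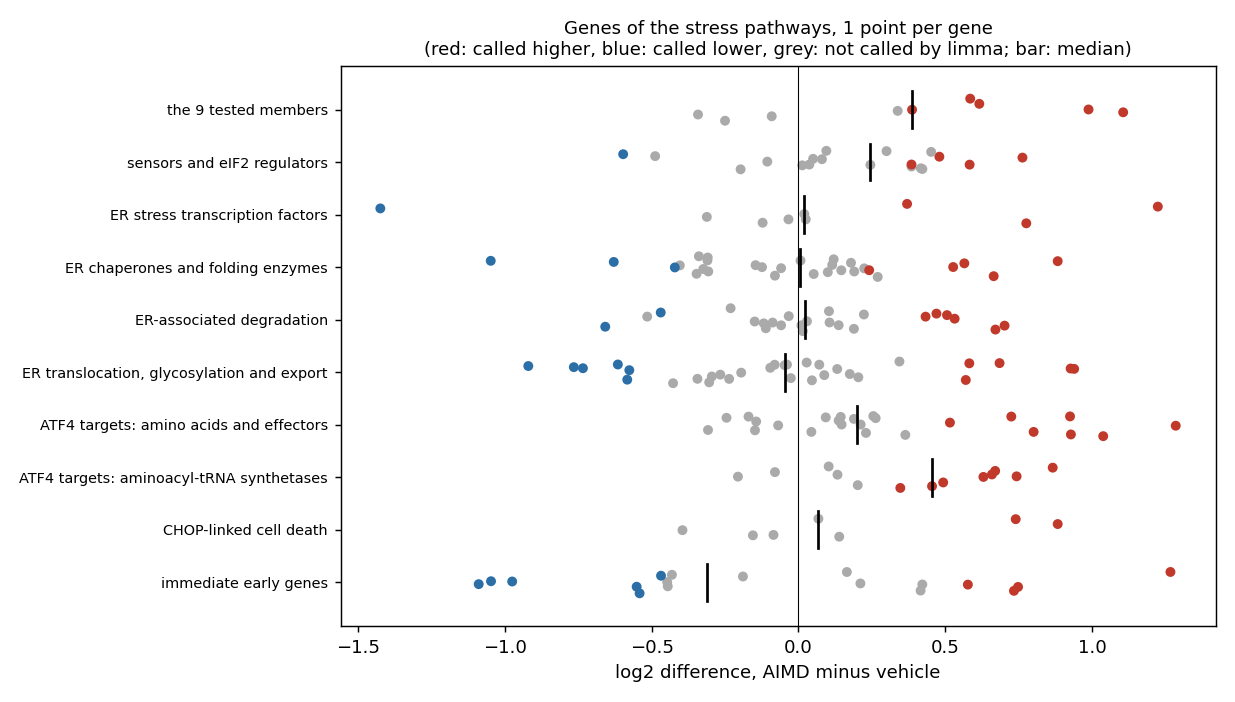
Log2 difference of AIMD minus vehicle (horizontal axis) of each tested gene, 1 point per gene, in the members and 9 lists of the same pathways; red points were called higher, blue lower and grey not called, and bars are medians. In the 2 lists of ATF4 targets, 8 of 13 tested synthetase and tRNA export genes and 7 of 24 other tested genes were called higher, and 0 lower. Of all tested genes, 19.4% were called higher and 16.7% lower. The lists of ER chaperones and of translocation hold genes called in both directions. Ero1l is in the lists of ER chaperones and of CHOP-linked cell death and has a point in each.

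Markers of cell types were measured beside the members. Of all tested genes, 19.4% were called higher and 16.7% lower. Among enteroendocrine markers 54.5% were called higher and 9.09% lower, and among smooth muscle markers 0% and 30%. The shares were 22.2% and 11.1% for goblet cells, 12.5% each for plasma cells and 20% and 10% for absorptive colonocytes. For leukocytes, and for fibroblasts and endothelium, they were 11.1% each. All 10 smooth muscle markers had a log2 difference below 0, and 3 of 10 were called lower. Their summed level was 260 to 944 FPKM in AIMD mice and 625 to 3818 in vehicle-treated mice. Vehicle replicate 8 had the highest of these sums, and the next vehicle-treated mouse had 1699 FPKM. For goblet cells, 2 of 9 markers rose (Tff3 by 1.14 and Clca3a1 by 0.38) and Muc2 fell by 0.77, with sums of 7000 to 13903 and 3857 to 11682 FPKM. For plasma cells, 1 of 8 tested markers rose (Sdc1, 0.52) and 1 fell (Mzb1, -1.12), with sums of 119 to 343 and 92.9 to 316 FPKM, and Tnfrsf17 had at most 0.937 FPKM. Enteroendocrine markers rose in 6 of 11 and fell in 1, led by Insl5 (4.92) and Gcg (2.75), and their sum was 194 to 306 FPKM in AIMD mice against 57.7 to 98.8. Leukocyte markers were called in 1 of 9 in each direction (57.5 to 125 FPKM and 70.3 to 217), with Ncr1 and S100a8 at 0 in some mice of both groups, and those of fibroblasts and endothelium likewise (39.1 to 90.3 and 31.8 to 126). Among absorptive colonocyte markers 2 of 10 rose, Ceacam20 (1.33) and Vil1 (0.42), and Aqp8 fell by 0.93. The part of these cell types, and of the deeper sequencing of AIMD mice, in the differences of the members was not tested.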

How the data were processed

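Per the study's methods, the authors aligned reads to GRCm38 (STAR), assigned them to GENCODE genes (featureCounts), tested counts with DESeq2, and deposited FPKM per mouse and gene symbol. The annotation release, the strand setting of the counting and the step from counts to FPKM are not given in the sources used here. Of 45808 rows, 27 whose symbol had become a date and 4 with a duplicated symbol were left out.

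The deposited FPKM were scaled by size factors (median of ratios, all 1.01) and taken as log2 after adding 0.5; differences on this scale understate those of low genes. Genes that reached 0.5 FPKM in 7 or more mice entered limma 3.58.1 in R 4.3.3 (lmFit, then eBayes with trend), two-sided, with Benjamini-Hochberg adjustment over 11966 genes and a threshold of 0.05. The p-values set the difference between groups against the spread between mice within groups, moderated over all genes. Per the study's methods several mice shared a cage. The labels give no cage, so variation shared within a cage is not in the model. Reads were recovered because FPKM are whole multiples of what 1 read is worth, within 0.02 reads at the GENCODE M21 exon length for 68.1% of 24258 genes above 0 and at a fitted length for nearly all others. Depth limits the precision of low genes. The clock axis is the first principal component of 12 clock genes centred within groups (93.6% of their variance), and the 2 sets were split at its largest gap. limma voom was run on the recovered reads with TMM factors computed here. The slope on the clock axis, its interaction with treatment and the values within sets without vehicle replicate 8 were added after the data were seen.

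Members, gene lists and tests were chosen with earlier results of these data known. Named genes are the members, the sensors and, per list, called genes with the largest differences (at most 4 in each direction, or 2 for markers and immediate early genes) or markers near 0. Mars, Gm4189, Gm6568 and the low genes Fgf21, Chac1 and Gdf15 were named with their values known. Gene coordinates are from GENCODE M21, and promoters are RefSeq's (10 of 10 members matched). Methods were tested on simulated data. Python 3.11.15 with pandas 2.3.3, scipy 1.17.1, numpy 2.4.6 and matplotlib 3.10.9 was used otherwise.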

Additional observations from a re-analysis of the deposited data

Results flagged for a closer look

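In 2 of 20 groups of members, 1 mouse stood apart from the rest by Dixon's gap at the 95% level, where chance alone gives about 1 in 20 groups. Atf3 in vehicle replicate 8 was 17.5 FPKM, and its gap to the next vehicle-treated mouse made up 0.647 of the range of the group. This mouse had the fewest reads, 165 of them on Atf3. Dnajb9 in AIMD replicate 4 was 112 FPKM, with a gap of 0.628 of the range. Without that mouse the log2 difference of Dnajb9 was 0.55 (limma adjusted p = 0.0465). AIMD replicate 4 also had the lowest summed smooth muscle markers of all mice (260 FPKM). Whether the mixture of cells plays a part in either flagged mouse was not tested.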

How the results depend on the processing

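The 9 tested members were refitted under 25 alternatives each: other scalings, pseudocounts and filters, an exact rank-sum test, the clock axis as a covariate, limma voom on recovered reads, a replicate block, and each mouse left out in turn. In all 225 refits a member kept its direction and its side of the threshold. Other filters, the rank-sum test and the clock axis left each log2 difference unchanged by construction, so only its p-value could move. The axis was centred within groups, so as a covariate it does not correct the difference for time of sacrifice. The number of members called was 5 throughout. The differences of Sdf2l1, Pdia4, Herpud1 and Atf4, none of them called, moved by over 1.5 times under settings given with each gene. Closest to the threshold were Dnajb9 (adjusted p = 0.0465 without AIMD replicate 4) and, from the other side, Sdf2l1 (adjusted p = 0.051 with the clock axis as a covariate), both from limma.

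Counts of called genes in the lists were less steady. Without the filter on low values, 5 genes of ER-associated degradation were called in place of 8, and 1 gene linking CHOP to cell death in place of 2, as also by the exact rank-sum test. With the clock axis as a covariate, 10 sensors and eIF2 regulators were called in place of 5. With each mouse left out, the counts ranged from 1 to 3 for the CHOP-linked genes, 5 to 10 for ER chaperones, 2 to 4 for transcription factors, 4 to 8 for ER-associated degradation and 4 to 9 for the sensors, and the mice behind these shifts are named with each list. The cause of these shifts was not tested. The other 255 counts, over all genes and lists, stayed within 1.5 times the reported count.

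By the labels, AIMD and vehicle samples of the same number are different mice. Deviations of same-numbered mice from their group means correlated between -0.35 and 0.43, and 1 of 7 correlated best with its own number. These values cannot decide whether same-numbered mice shared a cage or a time, since unpaired mice can correlate as well. With the replicate block, 5 members and 4599 of all genes were called, against 5 and 4316 without it.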
